A study of Homo sapiens with 9 samples.

Results

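RNA was measured for 10 genes that serve the surface display of peptides by MHC class I molecules. Neither protein nor surface display was measured. The heavy chains are HLA-B, HLA-C, HLA-E and HLA-F, with their light chain B2M. Further members are the peptide transporter subunits TAP1 and TAP2, the loading chaperone TAPBP, and the immunoproteasome subunits PSMB8 and PSMB9. All 20 probes that the array's annotation gives to these 10 genes, under a current or an older symbol, were taken, of 48803 probes and 18852 named genes on the array. Of the 10 genes, 7 had more than 1 probe. Total RNA of IGROV-1, an ovarian carcinoma cell line, had been turned into biotin-labelled cRNA and hybridised to Illumina bead arrays, with 3 arrays for each of 3 lines and 9 arrays in all. IGROV-1/Pt1 (Pt1) is a cisplatin-resistant variant of the line. IGROV-1/OHP (OHP) is labelled as resistant to oxaliplatin, while the text on the design names cisplatin exposure for both variants. Parental IGROV-1 cells are the platinum-sensitive line from which both variants were raised, and cells of all 3 lines were taken in exponential growth. The samples of a line are described as independent biological replicates, and the p-values measure the spread between them. Each variant is 1 resistant line, so resistance and any other difference between the lines cannot be told apart.

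MHC class I molecules carry peptides of cytosolic proteins to the cell surface, where CD8 T cells and natural killer cells read them. The proteasome cuts the proteins, the TAP1 and TAP2 transporter moves the peptides into the endoplasmic reticulum, and tapasin, the product of TAPBP, holds an empty heavy chain and B2M beside the transporter until a peptide fits. Interferons raise most of these genes through factors such as IRF1 and NLRC5, and in cells exposed to interferon PSMB8 and PSMB9 take the place of the constitutive catalytic subunits PSMB5 and PSMB6.

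Of the members, 9 lie on chromosome 6 and B2M on chromosome 15. In the RefSeq gene order TAP2, PSMB8, TAP1 and PSMB9 follow each other with no other protein-coding gene between them. RefSeq promoter windows of 300 bases (GRCh38.p14, 250 bases before to 50 after a start site) were found for 9 of the 10 members, 11 windows in all. The windows were searched on both strands for the core of the interferon-stimulated response element, GAAANNGAAA. It was present in 6 of the 11 windows, those of HLA-F, B2M, TAP2, TAPBP, 1 of 2 for TAP1 and 1 of 2 for PSMB8, against 3.57% of 35116 windows of all genes. The GAS letters TTCNNNGAA stood in 2 of the 11 windows, against 7.66% of all windows, and the NF-kB consensus in 5 of the 11, against 11.3%. A match is a description of the letters and not evidence of a bound site. The windows printed here are those of the members with a probe past the test in some comparison (TAPBP, PSMB8, PSMB9, HLA-F), that of TAP1, which shares its upstream stretch with PSMB9, and that of B2M, the partner of every heavy chain. Capitals mark the response element core on either strand, and matches that overlap run together.
TAPBP (chr6:33314029-33314328, minus strand): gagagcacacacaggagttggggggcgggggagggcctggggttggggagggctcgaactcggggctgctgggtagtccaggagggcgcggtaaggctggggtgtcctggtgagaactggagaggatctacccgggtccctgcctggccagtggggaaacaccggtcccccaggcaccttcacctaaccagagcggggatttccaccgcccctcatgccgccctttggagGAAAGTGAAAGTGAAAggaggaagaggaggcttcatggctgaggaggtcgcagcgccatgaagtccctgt
PSMB8 (chr6:32843998-32844297, minus strand): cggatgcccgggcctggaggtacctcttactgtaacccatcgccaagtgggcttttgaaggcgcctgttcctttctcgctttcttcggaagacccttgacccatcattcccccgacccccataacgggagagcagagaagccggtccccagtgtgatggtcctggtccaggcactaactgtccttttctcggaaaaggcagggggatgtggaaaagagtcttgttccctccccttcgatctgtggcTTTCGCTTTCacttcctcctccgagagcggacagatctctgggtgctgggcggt
PSMB9 (chr6:32853942-32854241, plus strand): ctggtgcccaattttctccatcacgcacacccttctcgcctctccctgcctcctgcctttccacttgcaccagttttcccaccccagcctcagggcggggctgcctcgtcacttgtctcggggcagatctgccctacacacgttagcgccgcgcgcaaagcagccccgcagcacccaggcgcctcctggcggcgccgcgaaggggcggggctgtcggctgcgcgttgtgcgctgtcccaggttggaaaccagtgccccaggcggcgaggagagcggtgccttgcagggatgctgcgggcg
TAP1 (chr6:32853655-32853954, minus strand): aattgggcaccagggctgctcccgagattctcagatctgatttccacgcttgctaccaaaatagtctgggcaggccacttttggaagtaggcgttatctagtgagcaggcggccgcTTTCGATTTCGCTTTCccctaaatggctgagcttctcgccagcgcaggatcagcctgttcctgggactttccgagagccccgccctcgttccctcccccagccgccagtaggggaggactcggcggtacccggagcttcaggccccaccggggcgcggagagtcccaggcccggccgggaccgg
HLA-F (chr6:29723184-29723483, plus strand): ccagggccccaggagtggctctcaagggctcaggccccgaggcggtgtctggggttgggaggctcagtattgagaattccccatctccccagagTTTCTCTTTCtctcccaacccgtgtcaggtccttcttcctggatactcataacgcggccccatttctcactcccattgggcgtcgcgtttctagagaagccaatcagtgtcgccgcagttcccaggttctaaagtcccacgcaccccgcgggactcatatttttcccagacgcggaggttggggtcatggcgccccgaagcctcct
B2M (chr15:44711267-44711566, plus strand): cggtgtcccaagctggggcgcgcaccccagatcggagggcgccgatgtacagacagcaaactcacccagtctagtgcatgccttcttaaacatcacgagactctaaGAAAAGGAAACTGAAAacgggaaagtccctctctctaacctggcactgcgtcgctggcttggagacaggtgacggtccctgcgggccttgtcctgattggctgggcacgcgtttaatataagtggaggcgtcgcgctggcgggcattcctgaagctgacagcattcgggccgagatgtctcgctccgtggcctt
In TAPBP 2 overlapping cores ran from base -20 to -5 before the start site. In PSMB8 the core lay across the start site, from base -4 to 6. The PSMB9 window held no match, while the TAP1 window on the other strand held 2 overlapping cores from base -134 to -119. TAP1 and PSMB9 point away from each other with 487 bases between their start sites, their windows share 13 bases, and the TAP1 cores lie in the stretch between the genes. In HLA-F the core ran from base -156 to -147, and in B2M 2 overlapping cores ran from base -144 to -129.

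The second OHP array stood apart from the other arrays. Over all probes its log2 values correlated with the other OHP arrays at r = 0.937 and r = 0.921, while OHP arrays 1 and 3 correlated at 0.987, the Pt1 arrays among themselves at 0.99 to 0.991 and the parental arrays at 0.983 to 0.988. It correlated with the second parental array at 0.958, higher than with either other OHP array. Counts of member probes are therefore given with and without OHP array 2, and single results without it where that changes a call. A background ceiling of 302 intensity units, the 97.5 percentile of 431 olfactory receptor probes, was passed by 13 member probes on all 9 arrays, by 6 on some arrays and by 1, the second HLA-C probe, on none. As for the cells themselves, 8 of 10 ovarian epithelial markers passed the ceiling on all 3 arrays of parental cells, and 6 on all 3 arrays of Pt1 and of OHP. The summed intensity of those 10 markers was 45677 to 49726 in Pt1, 37946 to 52904 in OHP and 102077 to 108588 in parental cells, and the EPCAM probe was below the ceiling on all 3 Pt1 arrays. KRT19 alone had a mean of 64497 in parental cells, 29723 in Pt1 and 16800 in OHP. Against parental cells, KRT8 passed as higher in Pt1 and EPCAM, KRT7 and KRT19 as lower (limma, adjusted p under 0.05). In OHP KRT7 passed as higher and EPCAM and KRT19 as lower. The KRT8 call and the OHP call of KRT7 were each lost without some single arrays. The median log2 fold change of the 10 markers was -0.08 in Pt1 and -0.20 in OHP. Of 11 leucocyte markers, 1 passed the ceiling on all 3 arrays of each line, and their summed intensity was 2925 to 2984 in Pt1, 2750 to 3147 in OHP and 2826 to 2962 in parental cells. The part of these markers in the results was not tested. In bulk RNA a change in the number of cells that express a gene and a change in RNA per cell cannot be told apart.

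Against parental cells TAPBP, PSMB8 and PSMB9 each rose on 1 probe in Pt1, and no member probe fell. The 3 probes are 3 of 20 (15 others had a positive and 2 a negative log2 fold change), where 2.25% of all 48803 probes passed as higher and 2.83% as lower (limma, adjusted p under 0.05 over all probes). The median log2 fold change of the 20 probes was 0.66, against -0.00 over all probes. An unadjusted p under 0.05 was found for 11 of the 20, and for 7536 of all 48803 probes. On 14 of the 20 probes all Pt1 arrays were above all parental arrays and on 0 below, where ranges lay apart as higher for 14.4% of all probes and as lower for 14.3%. The fit takes its estimate of spread from all 3 lines. With OHP array 2 left out, 13 of the 20 probes, of 7 genes, passed as higher and 0 as lower, against 7.61% and 7.6% of all probes.

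In OHP cells 1 of the 20 member probes, the dimmer HLA-F probe, rose against parental cells, and 0 fell. Over all probes 0.848% passed as higher and 1.83% as lower. The median of the member probes was 0.29, against 0.02 over all probes. An unadjusted p under 0.05 was found for 3 of the 20, and for 5716 of all 48803 probes. All OHP arrays were above all parental arrays on 3 probes and below on 0, against 6.96% and 8.05% of all probes. In the fit without OHP array 2, 11 of the 20 probes, of 8 genes, passed as higher and 0 as lower, against 4.82% and 5.04% of all probes, and the median was 0.65. Then 13 probes had OHP arrays above all parental arrays and 2 below, against 16.6% and 16.5% of all probes. Both variants were compared with the same parental arrays, so these counts are not independent of those for Pt1.

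Between the variants, 1 of 20 member probes, the brightest of PSMB8, was lower in OHP than in Pt1, where 2.06% of all probes passed as lower, and 0 passed as higher, where 1.52% did. The median was -0.38, against 0.01 over all probes. An unadjusted p under 0.05 was found for 6 of the 20, and for 7037 of all 48803 probes. OHP arrays lay below all Pt1 arrays on 6 probes and above on 0, against 10.2% and 10.3% of all probes. After OHP array 2 was left out, 3 PSMB8 probes were lower, and the HLA-E probe and the dimmer of the 2 HLA-F probes were higher, in OHP, against 3.33% and 2.79% of all probes.

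**Figure D1:**
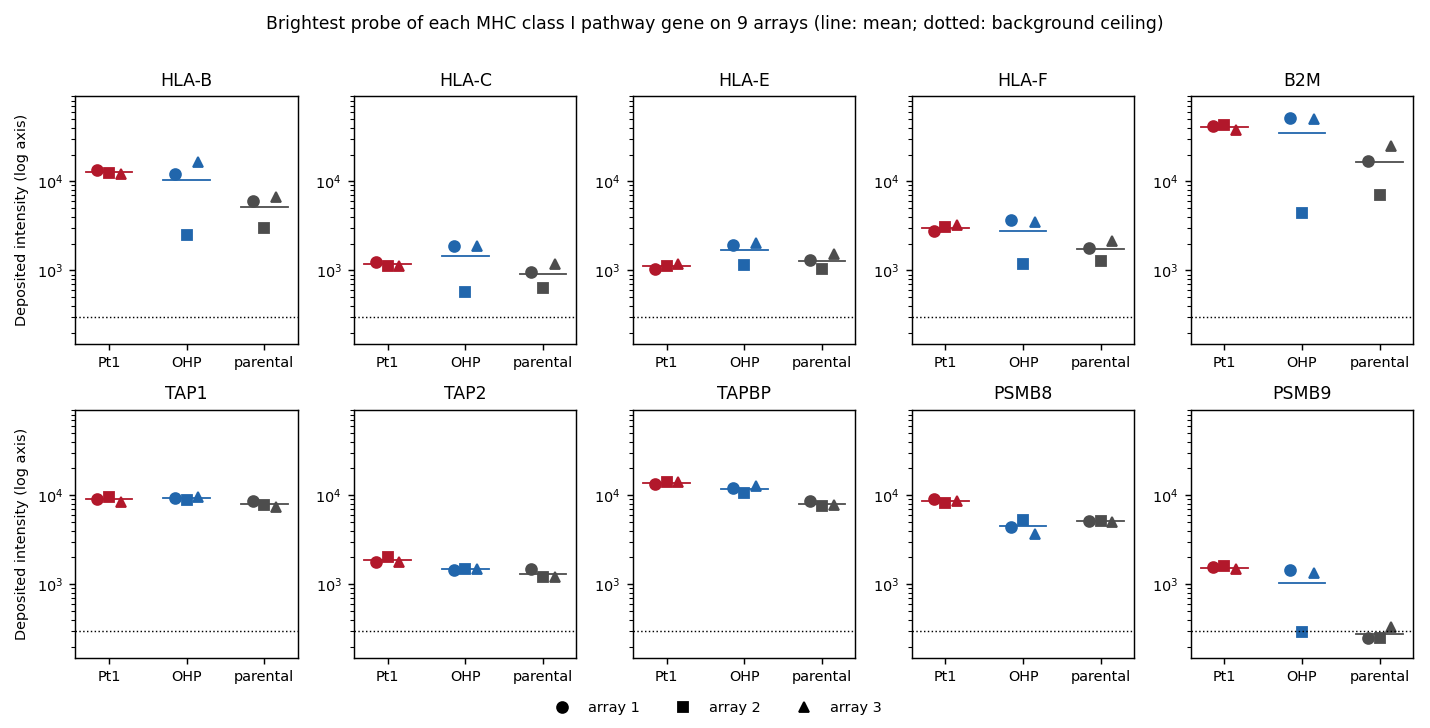
Deposited intensity (log axis) of the brightest probe of each member on the 9 arrays, with Pt1, OHP and parental cells from left to right, 3 arrays each and a marker shape for each array number; the solid line is the mean of a line and the dotted line the background ceiling of 302. PSMB9 lies between 1478 and 1583 in Pt1 and at or under 333 in parental cells. The second OHP array lies below the other OHP arrays for HLA-B, HLA-C, HLA-E, HLA-F, B2M and PSMB9, and by less for TAP1 and TAPBP.

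**Figure D2:**
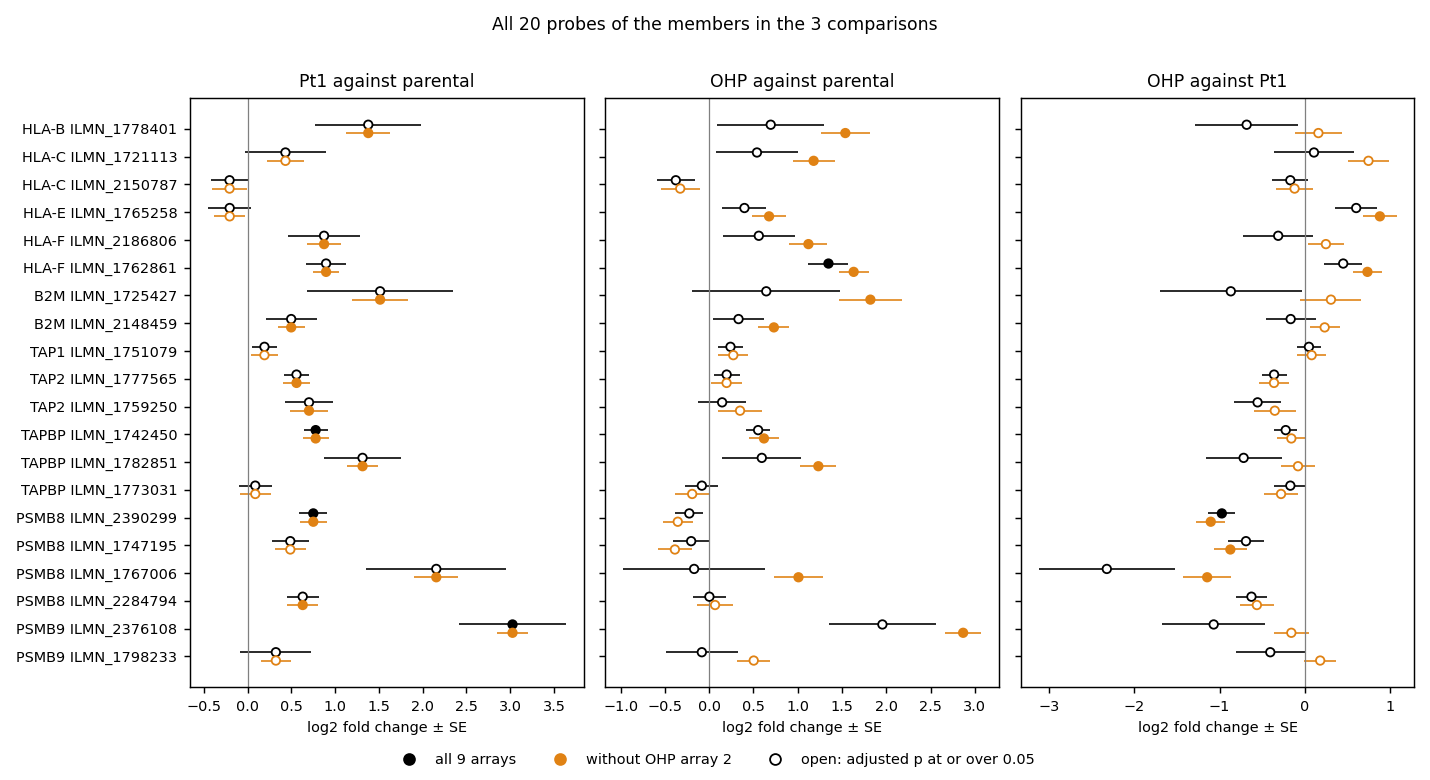
Log2 fold change with its SE for all 20 member probes in 3 comparisons, with all 9 arrays in black and without OHP array 2 in orange; filled points passed the test at an adjusted p under 0.05. With all arrays 3, 1 and 1 points are filled, and without OHP array 2 there are 13, 11 and 5.

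HLA-B, a classical heavy chain that shows peptides to CD8 T cells, had intensities of 13473, 12456 and 11948 in Pt1, of 12107, 2522 and 16375 in OHP, and of 5993, 2986 and 6648 in parental cells. All Pt1 arrays and OHP arrays 1 and 3 were above every parental array, and OHP array 2 was below them all. The log2 fold change was 1.38 ± 0.60 (SE) in Pt1 (adjusted p = 0.309, limma) and 0.70 ± 0.60 in OHP (adjusted p = 0.768). Once OHP array 2 was dropped, both passed the test, at 1.38 ± 0.25 in Pt1 (adjusted p = 0.00110) and 1.54 ± 0.28 in OHP (adjusted p = 0.00194). OHP against Pt1 then gave 0.16, with a 95% interval of -0.43 to 0.76.

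HLA-C, the other classical heavy chain here and the main ligand of natural killer cell immunoglobulin-like receptors, had 1245, 1134 and 1123 in Pt1, 1903, 571 and 1883 in OHP, and 959, 633 and 1175 in parental cells. The Pt1 and parental arrays overlapped, and OHP arrays 1 and 3 were the highest of the 9. Neither the change in Pt1 (0.43 ± 0.47, adjusted p = 0.781) nor that in OHP (0.54 ± 0.47, adjusted p = 0.766) passed. Without OHP array 2 the OHP value was 1.18 ± 0.24 (adjusted p = 0.00410) and that in Pt1 stayed at 0.43 (adjusted p = 0.234). The second HLA-C probe was below the background ceiling on all 9 arrays, between 154 and 197, and gives no direction.

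HLA-E presents leader peptides of other class I chains to the NKG2A receptor of natural killer cells. Its probe had 1027, 1133 and 1195 in Pt1, 1932, 1149.8 and 2021 in OHP, and 1298, 1035 and 1536 in parental cells. It was the 1 member whose brightest probe had a negative value in Pt1, at -0.21 ± 0.25 (adjusted p = 0.812), and the arrays overlapped. In OHP the value was 0.40 ± 0.25 (adjusted p = 0.632), and 0.68 ± 0.20 without OHP array 2 (adjusted p = 0.0384), a call that ended when parental array 2 was left out as well (adjusted p = 0.127). OHP against Pt1 was 0.60 ± 0.25 (adjusted p = 0.293) with all arrays and 0.88 ± 0.20 (adjusted p = 0.0113) without OHP array 2.

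HLA-F, a nonclassical heavy chain that is found at the surface also without peptide, was measured by 2 probes. The dimmer, ILMN_1762861, had 1559, 1459 and 1437 in Pt1, 2556, 1375 and 2268 in OHP, and 830.0, 795 and 905 in parental cells. All 6 arrays of the variants were above all parental arrays, with a mean of 1485 ± 65.2 in Pt1, 2066 ± 616 in OHP and 843 ± 55.8 in parental cells (SD, n = 3 each). It rose in OHP by 1.35 ± 0.23 on the log2 scale (adjusted p = 0.0108), and by 1.63 ± 0.17 without OHP array 2 (adjusted p = 1.15e-05). The OHP call was lost without parental array 1 (adjusted p = 0.0545) or parental array 2 (adjusted p = 0.0572). In Pt1 the value was 0.90 ± 0.23 (adjusted p = 0.0523), and it passed without OHP array 2 (adjusted p = 0.000588).

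The brighter HLA-F probe, ILMN_2186806, had 2764, 3051 and 3261 in Pt1, 3679.6, 1179 and 3457 in OHP, and 1781, 1273 and 2145 in parental cells. OHP array 2 was the lowest of the 9 here, whereas on the dimmer probe it was above every parental array. With all arrays it passed in neither variant, at 0.87 ± 0.41 in Pt1 (adjusted p = 0.352) and 0.56 ± 0.41 in OHP (adjusted p = 0.702). With OHP array 2 left out, both passed, at adjusted p = 0.00470 in Pt1 and 0.00286 in OHP. Class I heavy chains are close paralogs, and probe sequences were not used here, so which class I transcripts each of these probes takes up is uncertain.

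B2M, the light chain that every class I heavy chain needs to leave the endoplasmic reticulum, was measured by 2 probes that ranked the 9 arrays in the same order over different ranges. On ILMN_1725427 the values were 41922, 42420.0 and 38043 in Pt1, 50839, 4459 and 49979 in OHP, and 16948, 6964 and 25043 in parental cells. All Pt1 arrays were above all parental arrays, OHP arrays 1 and 3 were the highest of the 9, and OHP array 2 was the lowest. The log2 fold change was 1.51 ± 0.83 in Pt1 (adjusted p = 0.458) and 0.65 ± 0.83 in OHP (adjusted p = 0.867). In the fit without OHP array 2 it was 1.51 ± 0.32 in Pt1 (adjusted p = 0.00358) and 1.82 ± 0.36 in OHP (adjusted p = 0.00352).

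On the other B2M probe, ILMN_2148459, the values were 20800.2, 21725 and 20352 in Pt1, 25662, 10789 and 23625 in OHP, and 15728, 12769.8 and 16375 in parental cells. OHP array 2 was again the lowest, and all Pt1 arrays were above all parental arrays. The values were 0.50 ± 0.29 in Pt1 (adjusted p = 0.499) and 0.33 ± 0.29 in OHP (adjusted p = 0.771). After OHP array 2 was left out, both passed, at 0.50 ± 0.16 (adjusted p = 0.0425) and 0.73 ± 0.17 (adjusted p = 0.0132).

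TAP1, which pairs with TAP2 to form the peptide transporter, had 9047, 9624 and 8307 in Pt1, 9339, 8886 and 9643 in OHP, and 8528, 7850 and 7282 in parental cells. All 9 values lay between 7282 and 9643. Every OHP array was above every parental array, Pt1 overlapped both other lines, and OHP array 2 lay beside the other OHP arrays, with a mean of 8993 ± 660 in Pt1, 9289 ± 381 in OHP and 7887 ± 624 in parental cells (SD, n = 3 each). The log2 fold change was 0.19 in Pt1 (95% interval -0.12 to 0.50, adjusted p = 0.616) and 0.24 in OHP (-0.07 to 0.55, adjusted p = 0.588). OHP against Pt1 gave 0.05 (-0.26 to 0.36, adjusted p = 0.913). TAP1 passed in no comparison, with or without OHP array 2.

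TAP2 had 1796, 2023 and 1783 on its brighter probe in Pt1, 1450.0, 1475 and 1496 in OHP, and 1496, 1208 and 1209 in parental cells. All Pt1 arrays were above all OHP and all parental arrays, and OHP and parental arrays overlapped. The change in Pt1 was 0.56 ± 0.15 (adjusted p = 0.0644), and it passed without OHP array 2 (adjusted p = 0.0240) but not without parental array 2 as well (adjusted p = 0.0792). In OHP it was 0.20 ± 0.15 (adjusted p = 0.712). The dimmer probe gave 0.70 ± 0.27 in Pt1 (adjusted p = 0.233, 0.0427 without OHP array 2, and 0.114 without parental array 2 as well) and 0.15 ± 0.27 in OHP (adjusted p = 0.914).

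TAPBP, the tapasin gene, rose in Pt1 on its brightest probe, ILMN_1742450, which had 13282, 13883 and 13905 in Pt1, 11958, 10716 and 12612 in OHP, and 8687, 7613 and 7822 in parental cells. The lines did not overlap and stood in the order Pt1, OHP, parental. The log2 fold change in Pt1 was 0.78 ± 0.14 (adjusted p = 0.00872), and leaving out any 1 of the 9 arrays kept the call, which a trended, robust fit ended (adjusted p = 0.0564). In OHP it was 0.55 ± 0.14 (adjusted p = 0.0744), and 0.62 ± 0.16 without OHP array 2 (adjusted p = 0.0249). OHP against Pt1 was -0.22 ± 0.14 (adjusted p = 0.515).

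The 2 dimmer TAPBP probes differed from each other. ILMN_1782851 had 619, 664 and 697 in Pt1, 553, 238 and 718 in OHP, and 368, 282 and 327 in parental cells, so that OHP array 2 again stood lowest. Its value was 1.31 ± 0.44 in Pt1 (adjusted p = 0.158) and 0.59 ± 0.44 in OHP (adjusted p = 0.713). Parental array 2 and OHP array 2 were below the ceiling, and parental arrays 1 and 3 were near it. Both sizes therefore rest on values near background in parental cells. Once OHP array 2 was dropped, both passed, at adjusted p = 0.000101 in Pt1 and 0.000890 in OHP. ILMN_1773031, at 275 to 398 on all 9 arrays and so near the ceiling, gave 0.09 in Pt1 and -0.08 in OHP and passed in no comparison.

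PSMB8, the immunoproteasome counterpart of PSMB5, rose in Pt1 on its brightest probe, ILMN_2390299. It had 8989, 8204 and 8496 in Pt1, 4445, 5257 and 3659 in OHP, and 5177, 5151 and 5054 in parental cells. Every Pt1 array was above every OHP and parental array, OHP array 2 was the highest of the OHP arrays, and OHP overlapped parental cells. The mean was 8563 ± 396 in Pt1, 4454 ± 799 in OHP and 5128 ± 64.7 in parental cells (SD, n = 3 each). The log2 fold change was 0.75 ± 0.16 in Pt1 (adjusted p = 0.0234) and -0.22 ± 0.16 in OHP (adjusted p = 0.694). OHP against Pt1 gave -0.97 ± 0.16 (adjusted p = 0.00760), a call that leaving out any 1 array kept and that became -1.10 ± 0.17 without OHP array 2 (adjusted p = 0.000559). The call of Pt1 against parental was lost without any 1 of the Pt1 or parental arrays, with adjusted p of 0.0790 to 0.106.

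Of the other PSMB8 probes, ILMN_1767006 had 2376, 2370.1 and 2148 in Pt1, 927, 182 and 1285 in OHP, and 675, 398 and 786 in parental cells. Pt1 was above all other arrays, OHP array 2 was the lowest and below the ceiling, and the other OHP arrays were above parental cells. The values were 2.15 ± 0.80 in Pt1 (adjusted p = 0.206) and -0.17 ± 0.80 in OHP (adjusted p = 0.972). Without OHP array 2 they were 2.15 ± 0.25 in Pt1 (adjusted p = 1.93e-05) and 1.01 ± 0.28 in OHP (adjusted p = 0.0311), so that the sign in OHP against parental turned with that array. OHP against Pt1 was -2.32 ± 0.80 (adjusted p = 0.193) with all arrays and -1.15 ± 0.28 (adjusted p = 0.0211) without OHP array 2. This probe and the brightest one therefore gave opposite directions for OHP against parental without array 2, at 1.01 and -0.35.

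ILMN_1747195, a further PSMB8 probe, had 1154, 1546 and 1700.2 in Pt1, 901, 1175 and 770.5 in OHP, and 1039.8, 1067 and 1071 in parental cells. It gave 0.49 ± 0.21 in Pt1 (adjusted p = 0.299) and -0.20 ± 0.21 in OHP (adjusted p = 0.820). OHP against Pt1 was -0.69 ± 0.21 (adjusted p = 0.135), and passed at -0.87 ± 0.20 without OHP array 2 (adjusted p = 0.0124). The dimmest probe, ILMN_2284794, was above the ceiling on 1 array alone, at 318 on Pt1 array 3. With all other arrays not above background it gives no fold. Its adjusted p in Pt1 was 0.0952, 0.0242 without OHP array 2, and 0.109 without parental array 2 as well, and in OHP it was 0.997.

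PSMB9, the immunoproteasome counterpart of PSMB6, had the largest log2 fold change among the members in Pt1. Its brighter probe had 1559.8, 1583 and 1478 in Pt1, 1462, 291 and 1321 in OHP, and 251, 248 and 333 in parental cells. All Pt1 arrays and OHP arrays 1 and 3 were above every parental array, while OHP array 2 lay among the parental arrays. The mean was 1540 ± 55.4 in Pt1, 1025 ± 640 in OHP and 277 ± 47.9 in parental cells (SD, n = 3 each), and 2 of the 3 parental arrays were below the ceiling.

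The PSMB9 log2 fold change was 3.03 ± 0.61 in Pt1 (adjusted p = 0.0173), and 3.03 ± 0.18 without OHP array 2 (adjusted p = 1.39e-08). In OHP it was 1.96 ± 0.61 (adjusted p = 0.174), and 2.87 ± 0.20 without OHP array 2 (adjusted p = 2.03e-07). The Pt1 call was lost without any 1 of the Pt1 arrays or without parental array 1 or 2, with adjusted p of 0.0731 to 0.0811. OHP against Pt1 gave -1.07 (95% interval -2.42 to 0.29), and -0.16 (-0.59 to 0.27) without OHP array 2. The dimmer PSMB9 probe was under the ceiling on most arrays, at 252 to 308 in Pt1, 158 to 322 in OHP and 228 to 260 in parental cells, and passed in no comparison.

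The members were read together on the second OHP and the second parental array. On OHP array 2, 16 of 20 member probes were below the mean of OHP arrays 1 and 3 (log2 values), with a median difference of -0.84 and 9 probes over 2-fold lower. Of the 13 member probes above the ceiling on all arrays, 10 were below that mean, 5 of them over 2-fold lower. Over the 12836 probes above the ceiling on all arrays, 48.0% were below, with a median of 0.06. Of these, 2599 (20.2%) were over 2-fold lower and 2589 over 2-fold higher, where 0 member probes were over 2-fold higher. The PSMB8 probe ILMN_1767006 and the B2M probe ILMN_1725427 were the lowest, both at -3.53, and the brightest PSMB8 probe was higher there, at 0.39. The parental array of the same number was below the mean of parental arrays 1 and 3 for 16 of 20 probes, with a median of -0.28. On Pt1 array 2, 5 of 20 probes were below the mean of Pt1 arrays 1 and 3. Over the same 12836 probes, 46.4% were below the mean of their line's other arrays on parental array 2 and 49.9% on Pt1 array 2. For the 13 member probes above the ceiling on all arrays these counts were 11 and 4. Across the 20 member probes the OHP and parental differences correlated at r = 0.85, and across the 12836 probes at 0.83; probes on the same 2 arrays are not independent. With OHP array 2 and parental array 2 both left out, an alternative chosen after seeing the data, 9 member probes passed in Pt1 and 8 in OHP against parental cells, all as higher. Of all 48803 probes, 3061 then passed as higher and 2966 as lower in Pt1, and 1803 and 1971 in OHP. Of the calls made without OHP array 2 alone, this alternative ended those of both TAP2 probes, PSMB8 ILMN_2284794 and B2M ILMN_2148459 (adjusted p = 0.166) in Pt1. In OHP it ended those of HLA-E, of TAPBP ILMN_1742450 (adjusted p = 0.0639) and of PSMB8 ILMN_1767006 (adjusted p = 0.0735). The labels give no batch for any array, and the part of RNA quality or culture in this pattern was not tested.

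**Figure D3:**
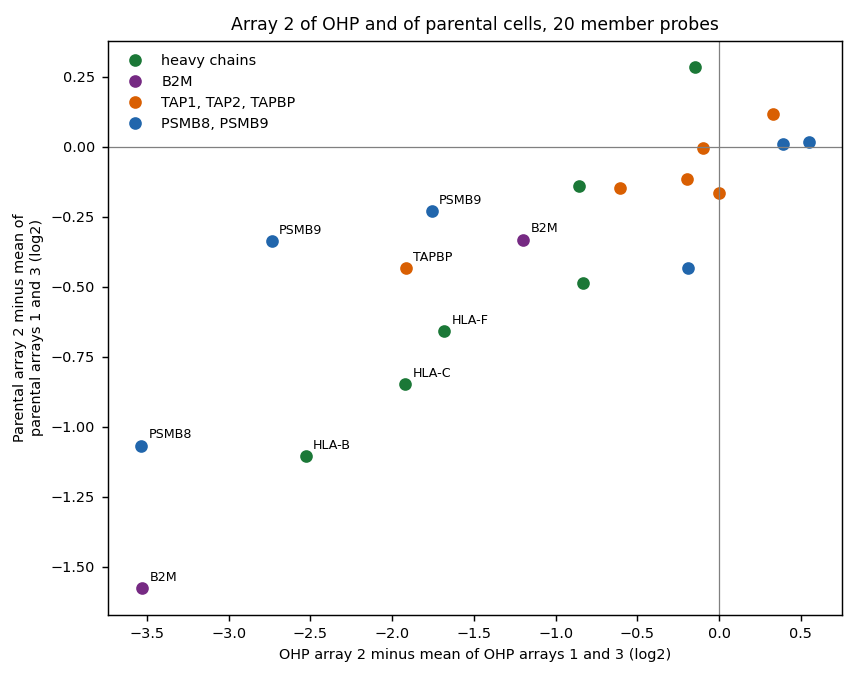
Difference between array 2 and the mean of arrays 1 and 3 (log2) for OHP cells on the horizontal axis and parental cells on the vertical axis, 1 point for each of the 20 member probes, coloured by role. Most points lie below 0 on both axes, with a B2M probe at -3.53 and -1.58 and the brightest PSMB8 probe at 0.39 and 0.01.

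By their brightest probes, some members ran together over the arrays and others did not. Over the 9 arrays the log2 value of the brightest probe of HLA-B correlated with B2M at r = 0.98, with HLA-F at 0.97 and with HLA-C at 0.90. PSMB9 correlated with HLA-F and with TAPBP at 0.90. PSMB8 correlated with its partner PSMB9 at 0.38, with HLA-B at 0.22 and with HLA-E at -0.74. With OHP array 2 left out, these PSMB8 values were 0.36, 0.19 and -0.78. They hold for the PSMB8 probe ILMN_2390299 alone, which was 0.39 above the other OHP arrays on OHP array 2. The PSMB8 probe ILMN_1767006 was at -3.53 there, on the same side as HLA-B at -2.53, and its correlations were not computed. Whether PSMB8 as read by that probe ran with the other members was therefore not tested. The arrays share their lines and normalization, so the values describe likeness over these arrays. The mean log2 value over the 10 members was 12.16, 12.19 and 12.14 in Pt1, 12.23, 10.92 and 12.24 in OHP, and 11.34, 10.88 and 11.49 in parental cells.

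The other genes of the pathway were read from lists, by the brightest probe of each gene, where 3.68% of 18852 genes passed as higher and 5.16% as lower in Pt1, 1.51% and 3.27% in OHP, and 2.94% and 3.61% in OHP against Pt1. Of the 18852 genes, 4386 in Pt1 and 3189 in OHP had an unadjusted p under 0.05 in limma. Without OHP array 2, 2054 passed as higher and 2443 as lower in Pt1, and 1167 and 1616 in OHP. In OHP 5375 then had an unadjusted p under 0.05. Of 9 further peptide loading and trimming genes 1 rose in Pt1 and 0 changed in OHP, where 1 had an unadjusted p under 0.05. The gene that rose in Pt1, TAPBPL, encodes a tapasin relative that edits class I peptides, and it had 509, 518 and 543 in Pt1, 385, 292 and 337 in OHP, and 335, 320.1 and 388 in parental cells. All Pt1 arrays were above the others, with 0.77 ± 0.18 in Pt1 (adjusted p = 0.0347) and -0.84 ± 0.18 in OHP against Pt1 (adjusted p = 0.0302). The Pt1 call was lost without any 1 Pt1 array or parental array 1 or 2 (adjusted p of 0.109 to 0.148), and that of OHP against Pt1 without any 1 Pt1 array, OHP array 3 or parental array 1 (0.0538 to 0.133). The trimming peptidase ERAP2 had 30953, 28731 and 34688 in Pt1, 21275, 59734 and 19891 in OHP, and 9219, 18461 and 13173 in parental cells, with no overlap of either variant with parental cells. Its values were 1.27 ± 0.40 in Pt1 (adjusted p = 0.124) and 1.17 ± 0.40 in OHP (adjusted p = 0.230), and OHP array 2 was the highest of the 9. Without that array ERAP2 passed in Pt1, at 1.27 ± 0.21 (adjusted p = 0.000579), and not in OHP, at 0.66 ± 0.24 (adjusted p = 0.107), and 3 genes of this list were then higher and 1 lower in Pt1, with 0 in OHP (2 at an unadjusted p under 0.05 in limma). The chaperone CALR gave -0.12 in Pt1 and 0.14 in OHP. Neither CALR nor the other trimming peptidase, ERAP1, below the ceiling on all parental arrays, nor the oxidoreductase PDIA3, below it on all 9, passed the test. The median over the 9 genes was 0.14 in both variants.

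Of 10 other class I and class I-like genes measured, 1 fell in each variant and 0 rose. CD1D, which presents lipids and not peptides, had 235, 308 and 271 in Pt1, 237, 344 and 212 in OHP, and 525, 1650.1 and 795 in parental cells. Every array of the variants was below every parental array. The change was -2.17 ± 0.44 in Pt1 (adjusted p = 0.0174) and -2.29 ± 0.44 in OHP (adjusted p = 0.0216). The Pt1 call was lost without any 1 Pt1 array or parental array 3 (adjusted p of 0.0551 to 0.0923), and the OHP call without Pt1 array 3, OHP array 1 or 3, or parental array 2 or 3 (0.0505 to 0.0858). With OHP array 2 left out, 2 of the 10 genes were higher and 1 lower in Pt1, and 1 higher and 1 lower in OHP. Of all 18852 genes, 2054 were then higher and 2443 lower in Pt1, and 1167 higher and 1616 lower in OHP. The list's median was 0.18 in Pt1 and 0.16 in OHP, against -0.02 and -0.01 over all genes.

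Of 6 other immunoproteasome and proteasome activator genes, 1 rose in Pt1, and it was lower in OHP than in Pt1. PSME3, a nuclear proteasome activator subunit, had 7438, 7947 and 8085 in Pt1, 4763, 2669 and 4409 in OHP, and 4009, 3623 and 4476 in parental cells. Pt1 stood above both other lines, at 0.98 ± 0.22 against parental cells (adjusted p = 0.0308), and OHP against Pt1 was -1.05 ± 0.22 (adjusted p = 0.0280). The Pt1 call was lost without any 1 of the Pt1 or parental arrays (adjusted p of 0.0662 to 0.134), and that of OHP against Pt1 without any 1 Pt1 array or parental array 1 (0.0546 to 0.121). PSMB10, the third catalytic subunit of the immunoproteasome, had 13167, 14184 and 13473 in Pt1, 17087, 33532 and 14003 in OHP, and 11824, 13650.4 and 11309.7 in parental cells. Its value was 0.16 ± 0.28 in Pt1 (adjusted p = 0.888) and 0.72 ± 0.28 in OHP (adjusted p = 0.320), and OHP array 2 was the highest array. PSME1 and PSME2, the interferon-inducible activator subunits, gave 0.26 and 0.27 in Pt1 and -0.08 and 0.20 in OHP, none past the test.

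Of 13 constitutive proteasome genes 0 passed in either variant against parental cells, and 1 was lower in OHP than in Pt1. Of the 13 genes, 5 in Pt1 and 2 in OHP had an unadjusted p under 0.05 in limma, against 4386 and 3189 of all 18852 genes. PSMB6, which PSMB9 replaces, had 39869.5, 41176 and 44096 in Pt1, 19948, 11538 and 19290.0 in OHP, and 29727, 25686 and 29813 in parental cells. The lines did not overlap, and OHP against Pt1 was -1.35 ± 0.21 (adjusted p = 0.00573). PSMB5, which PSMB8 replaces, gave 0.65 ± 0.53 in Pt1 and -0.28 ± 0.53 in OHP, and PSMB7, which PSMB10 replaces, 0.26 ± 0.18 and 0.00 ± 0.18, with adjusted p of 0.581 to 0.999. In the fit without OHP array 2, 5 of the 13 genes were higher and 2 lower in Pt1, where 10.9% of all genes passed as higher and 13% as lower, and PSMB5 (adjusted p = 0.0285) and PSMB6 (adjusted p = 0.0177) were among the higher.

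**Figure D4:**
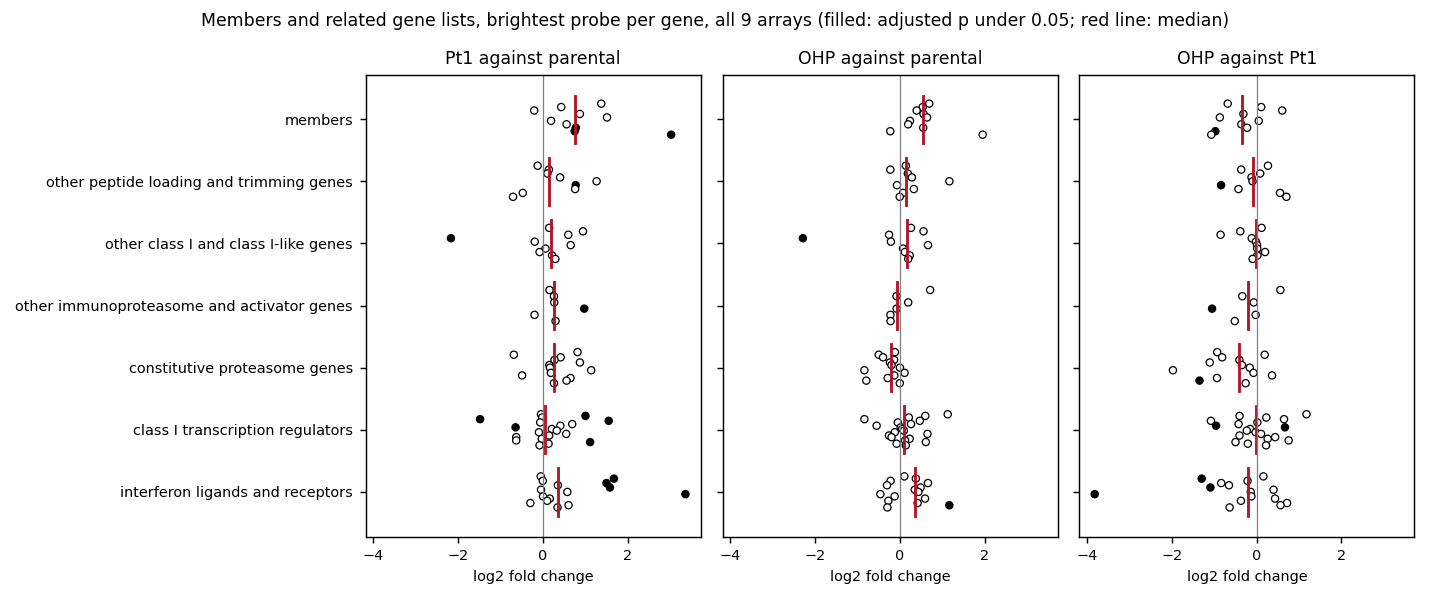
Log2 fold change of the members and of 6 related gene lists (brightest probe of each gene, all 9 arrays) in 3 comparisons, with filled points for genes past the test and a red line at each list's median. The members' median is 0.76, 0.55 and -0.34, and the constitutive proteasome's is 0.27, -0.20 and -0.41.

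Of 20 measured regulators of class I transcription 3 rose and 2 fell in Pt1, and 0 passed in OHP. In OHP 5 had an unadjusted p under 0.05 in limma, against 3189 of all 18852 genes. Between the variants, 1 regulator was higher and 1 lower in OHP than in Pt1. IRF1, an activator of class I and immunoproteasome genes, had 1567, 1823 and 1964 in Pt1, 1293, 1526 and 1297 in OHP, and 879.5, 1038 and 893 in parental cells. The lines did not overlap and stood in the order Pt1, OHP, parental, at 1.004 ± 0.16 in Pt1 (adjusted p = 0.00471) and 0.60 ± 0.16 in OHP (adjusted p = 0.0962). IRF7, which drives type I interferon genes, rose in Pt1 by 1.55 ± 0.31 (adjusted p = 0.0180), and RELA, a subunit of NF-kB, by 1.11 ± 0.25 (adjusted p = 0.0289). IRF3, which also drives interferon genes, fell in Pt1 by 1.48 on the log2 scale (adjusted p = 0.0257). RFX5, part of the complex on MHC promoters, fell in Pt1 by 0.65 (adjusted p = 0.0252). Leaving out any 1 of the 9 arrays kept the IRF1 call. The others were lost without any 1 Pt1 array and without some parental arrays: any 1 for IRF3 (adjusted p of 0.0526 to 0.116) and RFX5 (0.0593 to 0.117), array 1 or 3 for IRF7 (0.0614 to 0.0933), and array 1 or 2 for RELA (0.0852 to 0.128). Without OHP array 2, 5 of the 20 regulators were higher and 2 lower in Pt1, and in OHP RELA rose (0.84, adjusted p = 0.0209) and IRF3 fell (-1.25, adjusted p = 0.000857). The counts over all 18852 genes were then 2054 higher and 2443 lower in Pt1, and 1167 and 1616 in OHP.

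NLRC5, the class I transactivator, had 302, 324 and 246 in Pt1, 444, 923 and 377 in OHP, and 254, 291 and 345 in parental cells. The Pt1 and parental values were near or under the ceiling. All OHP arrays were above all others, at 1.13 ± 0.37 against parental cells (adjusted p = 0.200) and 1.18 ± 0.37 against Pt1 (adjusted p = 0.145). Both sizes rest on values near background in the dimmer line. In OHP against Pt1, STAT3 was lower at -0.96 ± 0.16 (adjusted p = 0.00862) and RFX5 higher at 0.67 ± 0.14 (adjusted p = 0.0279). The STAT3 call was lost without Pt1 array 2 (adjusted p = 0.0543), and the RFX5 call without any 1 Pt1 array or OHP array 1 or 3 (0.0553 to 0.130). IRF7 was lower in OHP than in Pt1 without OHP array 2, at -1.47 (adjusted p = 0.000307). The median of the 20 genes was 0.06 in Pt1, 0.11 in OHP and -0.00 in OHP against Pt1.

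Of 15 interferon ligand, receptor and feedback genes 4 rose in Pt1, 1 rose in OHP, and 3 were lower in OHP than in Pt1. IFNLR1, a chain of the type III interferon receptor, had 1251, 1360.0 and 1359.6 in Pt1, 194, 169 and 188 in OHP, and 229, 195 and 225 in parental cells. OHP and parental arrays were all below the ceiling, so the gene was at least 4.38-fold higher in Pt1 than in either (adjusted p = 2.39e-06 against parental cells, and 1.08e-06 for OHP against Pt1). IFNAR2, a chain of the type I receptor, had 3189, 3478 and 3351 in Pt1, 1782, 1104 and 2174 in OHP, and 1271, 1068 and 1208 in parental cells. Pt1 stood apart from both other lines, at 1.58 ± 0.24 against parental cells (adjusted p = 0.00360) and -1.09 ± 0.24 in OHP against Pt1 (adjusted p = 0.0354). The call of OHP against Pt1 was lost without any 1 of the Pt1 or parental arrays or OHP array 1 (adjusted p of 0.0595 to 0.149). Without OHP array 2, IFNAR2 also rose in OHP against parental cells, at 0.79 ± 0.18 (adjusted p = 0.00832).

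The interferon ligands were near the ceiling. IFNB1, a type I interferon, had 286, 436 and 348 in Pt1, 178, 197 and 229.6 in OHP, and 157, 186 and 188 in parental cells, so that 2 of 9 arrays, both of Pt1, passed 302. With OHP and parental cells not above background, it was at least 1.16-fold higher in Pt1 than in either (adjusted p = 0.00485 against parental cells, and 0.0255 for OHP against Pt1). The call of OHP against Pt1 was lost without Pt1 array 2 or 3 or OHP array 1 (adjusted p of 0.0917 to 0.122). IFNL1, a type III interferon, had 325, 689.9 and 364 in Pt1, 299, 266 and 283 in OHP, and 201, 216 and 225 in parental cells. It was at least 1.44-fold higher in Pt1 than in parental cells (adjusted p = 0.0185), a call lost without any 1 parental array (adjusted p of 0.0560 to 0.0869). SOCS1, an inhibitor of interferon signalling, had 309, 334 and 324 in Pt1, 366, 568 and 388 in OHP, and 223, 292 and 228 in parental cells. It was at least 1.43-fold higher in OHP than in parental cells (adjusted p = 0.0310), a call lost without any 1 Pt1 array or parental array 1 or 3 (adjusted p of 0.0644 to 0.144). With OHP array 2 left out, 6 of the 15 genes were higher in Pt1 and 2 in OHP against parental cells. Over all 18852 genes, 2054 were then higher in Pt1 and 1167 in OHP.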

How the data were processed

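Members, related gene lists and alternatives were chosen with earlier results of these data known. The deposited intensity values of 48803 probes are on a linear scale; per the submitters' processing notes the authors used BeadStudio (version not given in the sources used here). From the values they were quantile normalized by the authors and not background subtracted, since sorted arrays differed by at most 1.09% and the lowest value was 125. As the values were already normalized, normexp background correction (offset 50) and log2 were applied to them without a further normalization step. A second table's 9 signal columns could not be matched to samples and were not used, so its detection p-values were replaced by the olfactory receptor ceiling. GEO's platform annotation gives 28098 probes 1 symbol, 13 several and 20692 none.

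Each probe was fitted across the 9 arrays with limma 3.58.1 under R 4.3.3 (lmFit and eBayes, residual degrees of freedom 6, prior 3.92). There were 3 contrasts, 2-sided, with Benjamini-Hochberg adjustment over 48803 probes. SE and intervals come from the fit. The fit was tried on simulated data with independent noise of equal spread on every array. Those data held no array that stood apart as OHP array 2 does, so the trial does not cover that case. Lists use the brightest of a gene's probes. Where a line had no array above the ceiling and the other had 1 or more, the fold is a bound: the geometric mean of all 3 arrays of the brighter line over the ceiling, given only where above 1. Every member was named, with up to 4 called genes of each list and contrast and 12 others whatever their result. The series describes no pairing by replicate number, and none was used in the main fit. Between OHP and parental cells, same-numbered deviations from the line means correlated at 0.10, 0.58 and 0.44 for arrays 1, 2 and 3. In the comparisons with Pt1 they correlated at -0.14 to 0.13. Deviations were thus shared by number between OHP and parental arrays 2 and 3, and the main fit does not model this. Plots were made in Python 3.11.15 (matplotlib 3.10.9). The number of arrays limits the precision.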

Additional observations from a re-analysis of the deposited data

Results flagged for a closer look

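For 14 genes (9 described above, EPCAM and 4 further cell type markers), the change against parental cells differed between the 2 variants, as tested by the limma contrast of OHP against Pt1 (log2, adjusted p under 0.05 over all probes, 3 arrays a line). The sizes below are OHP minus Pt1 and use no parental values. The spread behind the adjusted p was estimated from all 9 arrays, parental ones included, and leaving out a parental array ended some of these calls.

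The brightest PSMB8 probe differed by -0.97 (0.75 in Pt1 and -0.22 in OHP against parental cells). TAPBPL differed by -0.84, the proteasome activator PSME3 by -1.05 and the constitutive subunit PSMB6 by -1.35. Among regulators STAT3 differed by -0.96 and RFX5 by 0.67. Among interferon genes IFNLR1 differed by -3.82, with OHP below the ceiling on all arrays, IFNB1 by -1.3 and IFNAR2 by -1.09. For IFNB1, OHP and parental cells were below the ceiling on all arrays, so that its size is not measured beyond the bound of at least 1.16-fold. For these 9 genes the difference had the same sign without OHP array 2, with sizes of -3.69 (IFNLR1) to 0.68 (RFX5) and adjusted p of 1.97e-09 to 0.0303. Over all alternatives, PSMB8, PSMB6 and IFNLR1 kept the call in 19 of 19, STAT3 in 18 of 19, IFNB1 in 14 of 18, PSME3 in 13 of 19, TAPBPL in 11 of 19, RFX5 in 10 of 19 and IFNAR2 in 9 of 19.

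Markers differed as well. The leucocyte marker CORO1A differed by -1.5, with 299, 414 and 403 in Pt1, 191, 186 and 200.2 in OHP and 197, 224 and 174 in parental cells. OHP and parental cells were not above background, so CORO1A was at least 1.22-fold lower in OHP than in Pt1, where 2 of 3 arrays passed the ceiling. The epithelial markers EPCAM and KRT7 were higher in OHP than in Pt1, by 4.15 and 3.56, while the keratins KRT8 and KRT19 were lower, by -2.16 and -0.86. EPCAM was at least 67.0-fold lower in Pt1 than in parental cells and at least 7.93-fold higher in OHP than in Pt1. All 5 kept their sign without OHP array 2, and over all alternatives KRT19 kept the call in 9 of 19. No part of these markers in the class I results was tested.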

How the results depend on the processing

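With all arrays 3 member probes passed for Pt1 and 1 for OHP against parental cells, and 1 between the variants, with 2479, 1306 and 1749 of all probes in the same order. Leaving out each array in turn gave 1 to 13, 0 to 11 and 1 to 5 member probes and 1330 to 7424, 724 to 4813 and 896 to 2985 of all probes. The highest counts came without OHP array 2; dropping 1 Pt1 array, whichever it was, or parental array 1 or 2 left 1 in Pt1, and the count in OHP was 0 without parental array 1 or 2. An alternative chosen after seeing the data left out OHP array 2 and parental array 2 together and gave 9, 8 and 6 member probes and 6027, 3774 and 3497 of all probes. Array weights gave 12, 8 and 6 and 6627, 3443 and 4321. A fit of only the 2 lines compared gave 13 member and 7484 of all probes in Pt1, 0 and 613 in OHP, and 1024 of all probes between the variants. With no background correction 2 member probes passed in OHP, with 1 probe per gene 0, and with a trended, robust fit 1 in Pt1. With the replicate number as a block, 5, 1 and 1 member probes and 2798, 1276 and 2009 of all probes passed. The series describes no such pairing, and same-numbered arrays deviated together mainly for OHP and parental arrays 2 (r = 0.58) and 3 (r = 0.44). The OHP value of the PSMB8 probe ILMN_1767006, -0.17 with all arrays, reversed to 1.01 without OHP array 2, within a range of -0.89 to 1.01 over single arrays left out; the cause was not tested. Of 1101 values of single member probes under the alternatives, this one included, 970 kept direction and side of the threshold, 79 passed it newly, 17 lost it and 34 changed sign without passing. Of 1701 such values of other named genes, 1506 kept both, 30 passed newly, 125 lost the call and 40 changed sign without passing. Dim probes near the ceiling of 302 limit what can be read from HLA-C, PSMB8 and PSMB9 second probes and from the dimmer TAPBP probes, and 3 arrays a line limit all comparisons.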

Other observations

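By Pearson correlation over the 9 arrays (log2, brightest probe, 11036 genes above the ceiling on at least 3 arrays), the genes most like PSMB9 were TRIM68 (r = 0.99), an E3 ubiquitin ligase, SEPTIN8, OAS1, PLAUR, LITAF, SLC49A4, B4GALT5 and CDK2, down to r = 0.98. OAS1, an interferon-induced synthetase of the antiviral RNase L pathway, kept r = 0.98 without OHP array 2. Most like the mean of the 10 members were HIKESHI (r = 0.99), RTL6, KNSTRN, CTNNB1, TP53RK, HCG4, HSF1 and LRRC15, down to r = 0.98. The 9 arrays share lines and normalization, and the values describe likeness in these arrays alone.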
